A study of Mus musculus with 6 samples.

Results

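The phagocyte NADPH oxidase was followed through 6 of the 41549 rows of the gene count table, the rows with the symbols Cybb, Cyba, Ncf1, Ncf4, Rac1 and Rac2. The table holds mRNA-seq of M2 macrophages (Mφs) in 2 groups of 3 libraries. All cells were wild-type bone marrow-derived Mφs of young adult C57Bl/6 N mice, matured with M-CSF and polarized with IL-4 and IL-13 after transfection with an LNA antisense inhibitor by Lipofectamine. In αGlu the inhibitor targeted the tRNA fragment 5′tRF-Glu(CTC), and in Ctr it was a control inhibitor whose sequence is not shown here. The comparison asks whether loss of the fragment altered gene expression in M2 Mφs. These libraries do not measure the fragment itself, so the inhibition in each library was not checked here.

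The oxidase makes superoxide by passing electrons from NADPH across a membrane to oxygen. Its catalytic core, flavocytochrome b, joins gp91phox (Cybb), which carries the electrons, to p22phox (Cyba), which stabilizes it and docks the cytosolic subunits. In resting phagocytes the organizer p47phox (Ncf1) and p40phox (Ncf4), which binds phosphatidylinositol 3-phosphate on phagosomes, stay in the cytosol. Phosphorylation of p47phox opens it for binding to p22phox, and the small GTPases Rac1 and Rac2, loaded with GTP, complete the active enzyme. The oxidase is known for killing of microbes, and loss of a subunit causes chronic granulomatous disease. In Mφs it also serves signalling and the restraint of inflammation.

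The antisense and the stretch of the fragment that it targets are shown because they define the groups. Capitals mark the 20 bases that pair, from base 2 to base 21 of the target. The fragment is longer than this target and is not shown in full.
Antisense: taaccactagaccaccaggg
5′tRF-Glu(CTC) target: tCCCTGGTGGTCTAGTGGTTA
In the annotated transcripts of the 6 genes, the longest run of bases that could pair with the 20 bases of the antisense was 9 in Ncf1. It was 8 in Rac2 and 7 in each of Cybb, Cyba, Ncf4 and Rac1.

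The 6 genes lie on 4 chromosomes of the mouse genome (GRCm38, GENCODE M21). Cybb (ENSMUSG00000015340) spans chrX:9435252-9487771 on the minus strand, and Cyba (ENSMUSG00000006519) spans chr8:122424776-122432930 on the minus strand. Ncf1 (ENSMUSG00000015950) lies at chr5:134220053-134229625 and Rac1 (ENSMUSG00000001847) at chr5:143503634-143528036, both on the minus strand. Ncf4 (ENSMUSG00000071715) lies at chr15:78244801-78262580 on the plus strand and Rac2 (ENSMUSG00000033220) at chr15:78559167-78572783 on the minus strand. Exons of Rac1 overlap Daglb on the opposite strand, which had up to 13179 reads in a library, and exons of Ncf1 overlap Gtf2ird2, with up to 231 reads. Exons of Cyba overlap Gm20388, also on the opposite strand, which had no row of its own in the count table. How the counting used strand, or divided reads between the related Rac1 and Rac2, is not given in the sources used here.

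The RefSeq promoters (GRCm38.p6) are shown for the members that had an entry, Cybb, Cyba and Ncf1. Each line is the 250 bases before the transcript start, on the minus strand, and Ncf4, Rac1 and Rac2 had no entry. Capitals mark the IRF-type repeat (GAAA, any 2 bases, GAAA), the CCAAT box and the interferon-γ-activated motif (GAS, TTCNNNGAA), searched on both strands.
Cybb, chrX:9469325-9469574: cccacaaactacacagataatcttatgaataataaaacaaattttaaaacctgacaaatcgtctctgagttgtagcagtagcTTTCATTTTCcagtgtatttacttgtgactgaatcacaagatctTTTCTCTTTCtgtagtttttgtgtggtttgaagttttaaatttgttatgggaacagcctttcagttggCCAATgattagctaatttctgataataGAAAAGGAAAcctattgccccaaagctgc
Cyba, chr8:122432941-122433190: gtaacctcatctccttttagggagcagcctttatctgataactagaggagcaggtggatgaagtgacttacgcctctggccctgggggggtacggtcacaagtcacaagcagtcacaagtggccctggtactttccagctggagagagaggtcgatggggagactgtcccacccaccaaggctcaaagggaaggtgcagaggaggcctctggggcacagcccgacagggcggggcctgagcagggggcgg
Ncf1, chr5:134229626-134229875: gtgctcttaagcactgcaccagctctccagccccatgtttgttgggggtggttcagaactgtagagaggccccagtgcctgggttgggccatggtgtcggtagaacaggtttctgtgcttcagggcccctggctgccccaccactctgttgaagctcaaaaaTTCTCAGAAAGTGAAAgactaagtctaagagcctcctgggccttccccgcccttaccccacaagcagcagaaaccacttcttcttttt
The Cybb window lies inside the annotated gene but contains none of its exon bases, whereas the other windows lie outside their genes. It held 3 IRF-type repeats, beginning 168, 124 and 29 bases before the start, and a CCAAT box at 56. The Ncf1 window held 1 IRF-type repeat at 82 bases before the start, which overlapped a GAS motif at 88. In the Cyba window neither motif nor a CCAAT box was found, but it held 2 GC boxes (GGGCGG), at 24 and 6, and the Ncf1 window held 1, at 42. Over all 32851 promoters, in the same 250 bases before the start, 2.98% held the IRF-type repeat, 7.02% the GAS motif, 33.8% the CCAAT box and 32.7% the GC box. None of the 3 windows contained GAGGAA, the only form of the PU.1 site that was searched, which 23.3% of promoters held. Shorter or variant forms of that site were not searched. STAT6-type spacing (TTC, any 4 bases, GAA) and TATAAA were absent as well, against 5.85% and 12.4% of promoters. These matches are descriptions of sequence, and binding was not measured.

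The libraries held 17912831 (αGlu 1) to 30386653 (αGlu 2) counted reads. The shallowest library, αGlu 1, also had the fewest genes with reads, 14539, and stood apart from the other αGlu libraries. On the first principal component of gene expression (76.7% of the variance) it scored -22.2, compared with 74.4 and 74.7 in αGlu 2 and 3 and -50.5 to -35.8 in Ctr. Fitted differences of the 6 genes, and counts of calls in the gene lists, are therefore given with and without it. All 8 Mφ markers were present at a mean above 1 CPM (read counts scaled to library size). Their sum was 11849 to 13404 CPM in Ctr and 12595 to 18784 CPM in αGlu, but its members differed in direction. Adgre1 was at 822 to 992 CPM in Ctr, compared with 1372 and 1595 CPM in αGlu 2 and 3. Itgam, Fcgr1, Cd14 and Lyz2 were also above all Ctr libraries there. Csf1r was so only narrowly, at 2777 CPM in αGlu 2 beside 2771 CPM in Ctr 1. The values of Cd14 were 17.3 to 30.1 CPM in Ctr, and 293 and 240 CPM in αGlu 2 and 3. Itgam had 425 to 534 CPM in Ctr, and 1035 and 1305 CPM in αGlu 2 and 3. Only Cd68 and Mertk were lower there than in any Ctr library. Cd68 was at 1809 to 2063 CPM in Ctr, compared with 1237 and 1144 CPM in these libraries, and Mertk at 91.1 to 93.7 CPM, compared with 77.7 and 80.5 CPM. In αGlu 1, Itgam (324 CPM) and Cd14 (12.4 CPM) were below all Ctr libraries, whereas Fcgr1 (276 CPM) and Mertk (103 CPM) were above. The remaining Mφ markers lay within the Ctr range in αGlu 1.

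Transcript levels of the subunits were first compared per length, in the deposited TPM unit, where different genes can be set side by side. Cyba was the most abundant of the 6 in every library. Its mean level was 2082 ± 89.7 TPM in Ctr and 1871 ± 242 TPM in αGlu (SD, n = 3). Cybb came second, at 586 ± 97.5 TPM in Ctr and 861 ± 220 TPM in αGlu. Thus the transcript of the stabilizing subunit outnumbered that of the catalytic subunit throughout.

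The cytosolic subunits and the GTPases followed at lower levels. Ncf4 was at 364 ± 39.1 TPM in Ctr and 359 ± 6.66 TPM in αGlu. Rac2, the Rac of blood cells, had 275 ± 19.6 TPM in Ctr and 276 ± 39.5 TPM in αGlu, above the ubiquitous Rac1, with 205 ± 19.6 and 192 ± 18.05 TPM. Ncf1 was the least abundant in Ctr, at 128 ± 5.26 TPM, but averaged 295 ± 129 TPM in αGlu. In Ctr and in αGlu 1 the order was Cyba, Cybb, Ncf4, Rac2, Rac1 and Ncf1, and in Ctr no neighbours in this order overlapped between libraries. Ncf1 moved to the fourth place in αGlu 2 and to the third, above Ncf4, in αGlu 3, so that in αGlu its range overlapped those of Ncf4, Rac2 and Rac1.

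Changes between groups were tested with edgeR's quasi-likelihood method on the counts of all 11933 genes with enough reads, which include all 6 members, at 3053 to 56415 reads per library. A gene was called at a Benjamini-Hochberg adjusted p below 0.1 and a log2 fold change beyond 1 in either direction. No gene was called (0% of 11933), with adjusted p values of 0.149 and above. There were 2943 genes at an unadjusted p below 0.05, which is 24.7% of those tested (12.7% higher in αGlu), whereas DESeq2 called 1117 genes (8.13%), edgeR's likelihood-ratio test 899 (7.53%) and limma-voom 0. Of the 6 members, 1, Ncf1, had an unadjusted p below 0.05, a share near this background. The median log2 fold change was -0.09 over the members and 0.02 over all tested genes.

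Ncf1, the organizer subunit, had the largest difference of the 6. It was at 146, 159 and 163 CPM (scaled with TMM factors) in Ctr 1, 2 and 3, and at 175, 397 and 435 CPM in αGlu 1, 2 and 3. All αGlu libraries were above all Ctr libraries, but αGlu 1 lay just above the highest Ctr value and the others far above it. The fitted fold change was 2.15 (95% interval 1.22 to 3.81), or 1.11 ± 0.34 on the log2 scale (SE, adjusted p = 0.160), and missed the call on the adjusted p. Such separation of the groups was no rarity: 30.2% of all tested genes had no overlap, 14.2% with αGlu higher. DESeq2 called Ncf1 at a log2 fold change of 1.10 ± 0.35 (adjusted p = 0.0251), as it did 4.21% of the genes it tested in the same direction. So did edgeR's likelihood-ratio test at an adjusted p of 0.0420, beside 3.87% of all genes called as higher. Without αGlu 1 the log2 fold change was 1.41 ± 0.09 (edgeR quasi-likelihood adjusted p = 0.000136) and Ncf1 was called, but so were 18.6% of all 12340 genes then tested, 8.05% as higher.

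**Figure D1:**
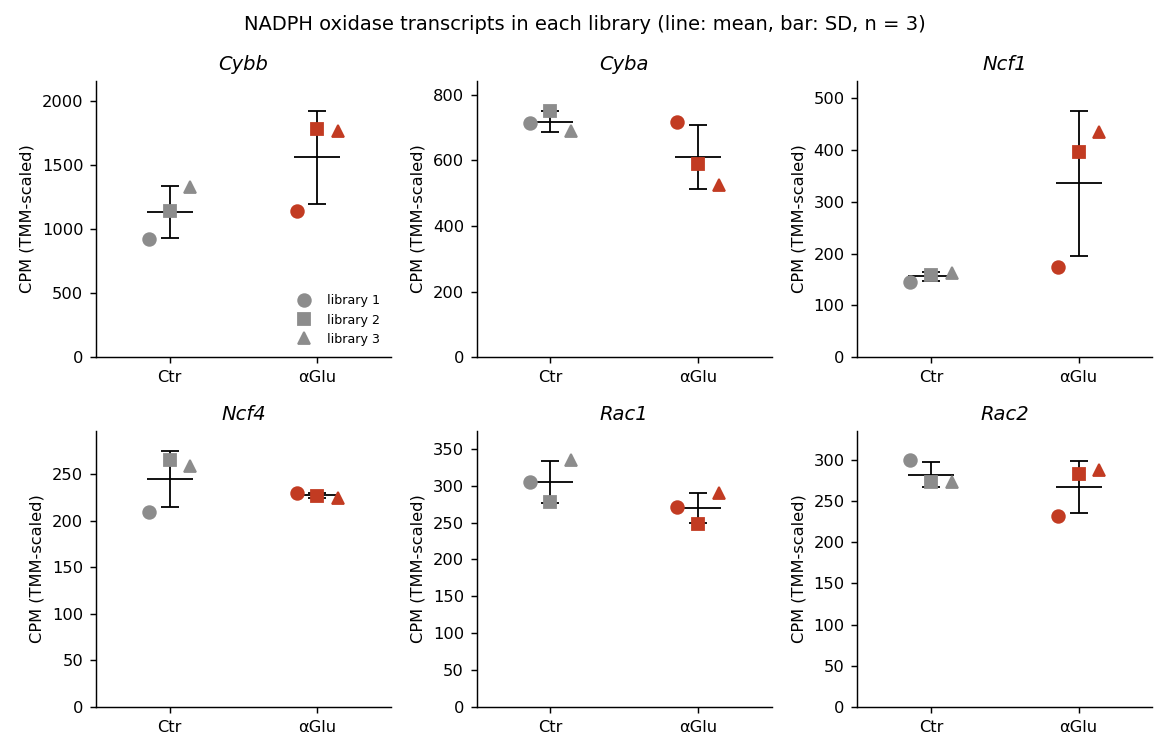
CPM (TMM-scaled, linear axis from 0) of the 6 oxidase genes in Ctr (grey) and αGlu (red), with 1 point per library, the mean as a line and the SD as a bar (n = 3). Ncf1 is the only one of the 6 with no overlap, with αGlu 2 and 3 at 397 and 435 CPM and αGlu 1 at 175 CPM, beside a highest Ctr value of 163 CPM.

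The 2 partners of the flavocytochrome differed in direction, neither passing the test. For Cybb the levels were 923, 1142 and 1329 CPM in Ctr and 1136, 1776 and 1760.4 CPM in αGlu. Only αGlu 2 and 3 lay above the Ctr range, and αGlu 1 lay inside it. The log2 fold change of Cybb was 0.46 ± 0.24 (adjusted p = 0.275), with a 95% interval from -0.13 to 1.05. Cyba was at 713, 751 and 689 CPM in Ctr, compared with 716, 589 and 525 CPM in αGlu. Here αGlu 2 and 3 were below the Ctr range and αGlu 1 was again within it. The log2 fold change of Cyba was -0.23 ± 0.15 (adjusted p = 0.346), with a 95% interval from -0.60 to 0.13.

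Without αGlu 1 these differences were larger. Cybb then had a log2 fold change of 0.64 ± 0.16 (edgeR adjusted p = 0.0204) and Cyba one of -0.37 ± 0.10 (adjusted p = 0.0263), both inside the limit of 1. With no limit on the fold change, 49.1% of all genes passed at an adjusted p below 0.1 in that fit (23.5% higher and 25.6% lower). The 3 of 6 members that did so, Cybb, Cyba and Ncf1, are thus close to the share over all genes. The same 3 had an unadjusted p below 0.05 and no overlap between groups without αGlu 1, as had 49.3% and 65.9% of all genes.

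For Ncf4 and the GTPases, differences lay within the spread between libraries. Ncf4 was at 209.7, 265 and 259 CPM in Ctr, compared with 229, 227 and 225 CPM in αGlu, where the 3 libraries nearly coincided inside the Ctr range. Its log2 fold change was -0.11 ± 0.12 (adjusted p = 0.572), and the 95% interval of -0.39 to 0.18 leaves room for a modest difference either way. Rac1 stood at 305, 278 and 335 CPM in Ctr, compared with 271, 249 and 290.3 CPM in αGlu, with overlapping ranges. The difference of Rac1 was -0.18 ± 0.12 on the log2 scale (adjusted p = 0.352, 95% interval -0.46 to 0.11). Rac2 had 299.7, 274 and 274 CPM in Ctr and 231, 283 and 288 CPM in αGlu, so that its lowest value was that of αGlu 1 and the other αGlu libraries lay within the Ctr range. Its log2 fold change was -0.08 ± 0.12 (adjusted p = 0.698, 95% interval -0.37 to 0.22), and took the opposite sign without αGlu 1, at 0.01 ± 0.09 (adjusted p = 0.922), and when scaled by library size alone, at 0.01 ± 0.15 (adjusted p = 0.960). Without αGlu 1, Ncf4 was at -0.12 ± 0.12 and Rac1 at -0.19 ± 0.12 (adjusted p = 0.472 and 0.258).

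**Figure D2:**
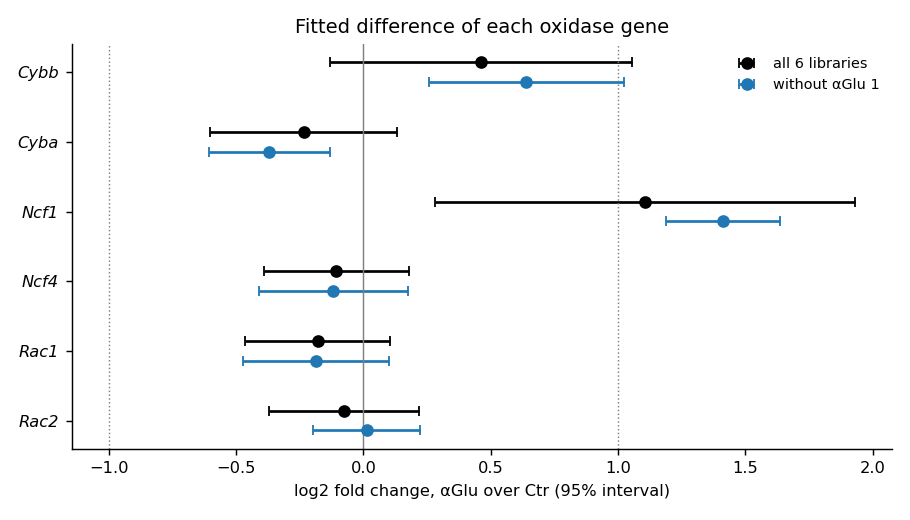
Fitted log2 fold change (αGlu over Ctr) of each oxidase gene with its 95% interval, from all 6 libraries (black) and without αGlu 1 (blue), with dotted lines at the call limit of 1. Intervals of Ncf1 exclude 0 in both fits, those of Cybb and Cyba only without αGlu 1, and those of Ncf4, Rac1 and Rac2 in neither.

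The proportions between subunits were then followed as ratios of TPM in each library, as a description. Cybb relative to Cyba, the partners of the flavocytochrome, was 0.232, 0.272 and 0.345 in Ctr and 0.284, 0.539 and 0.600 in αGlu. Ncf1 relative to Ncf4, both cytosolic, was 0.384, 0.331 and 0.347 in Ctr and 0.421, 0.965 and 1.07 in αGlu. Both ratios were higher in αGlu 2 and 3 than in any Ctr library, and in αGlu 1 the first lay inside the Ctr range and the second just above it. Rac2 relative to Rac1 was 1.42, 1.43 and 1.19 in Ctr and 1.24, 1.65 and 1.44 in αGlu, with overlap, and was above 1 in all 6 libraries. On the log2 scale the mean differences between groups were 0.69, 1.10 and 0.10.

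In the summed TPM of the 6 genes, which was 3549 to 3706 in Ctr and 3662, 3971 and 3931 in αGlu, the composition differed more than the total. Cyba made up 54.0% to 59.5% of the sum in Ctr, and 58.3%, 45.7% and 42.3% in αGlu 1, 2 and 3. The share of Cybb was 13.8% to 18.7% in Ctr and 16.6%, 24.7% and 25.3% in αGlu. That of Ncf1 was 3.46% to 3.63% in Ctr and 4.05%, 8.74% and 9.93% in αGlu.

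**Figure D3:**
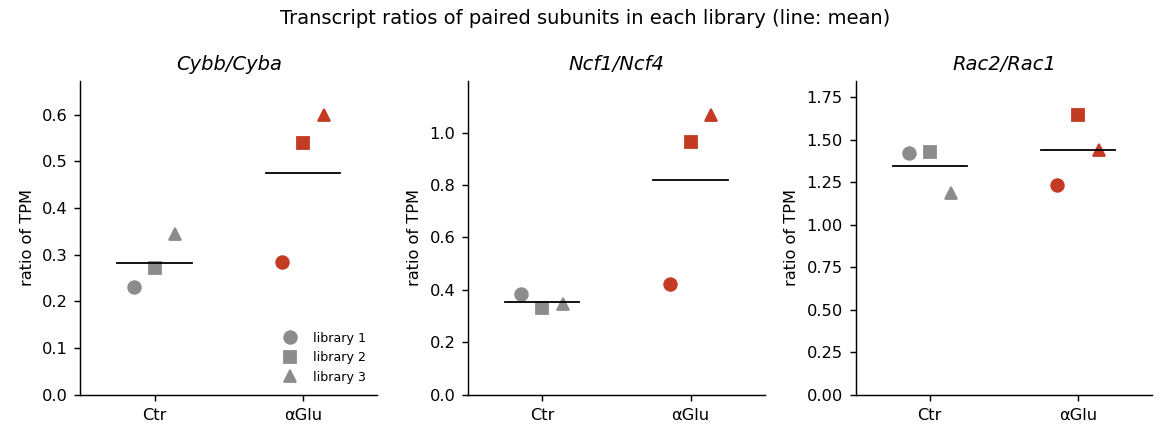
Ratio of TPM values (linear axis from 0) of Cybb to Cyba, Ncf1 to Ncf4 and Rac2 to Rac1 in each library of Ctr (grey) and αGlu (red), with the group mean as a line. The first 2 ratios in αGlu 2 and 3, at 0.539 and 0.600 and at 0.965 and 1.07, stand above all Ctr libraries, whereas the third overlaps.

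Genes that act around the oxidase were read from 9 lists with 63 genes, of which 52 had enough reads. None was called in the fit of all libraries. At an unadjusted p below 0.05 there were 17 of the 52 (32.7%, beside 24.7% of all genes), 6 higher and 11 lower in αGlu, and the median log2 fold change was -0.0009. No overlap between groups was seen for 15 (28.8%, beside 30.2% of all genes), 4 higher and 11 lower. DESeq2 called 5 of the 55 for which it gave an adjusted p (9.09%, beside 8.13% of all genes), namely Arhgap25, Tiam1, Prkcb and Hvcn1 as lower and Cebpb as higher. Without αGlu 1, 10 of the 52 were called (19.2%, beside 18.6% of all genes), 3 higher and 7 lower.

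The list of assembly factors had 5 genes tested and a median log2 fold change of 0.06. Its gene Cybc1 encodes Eros, a chaperone needed for the abundance of gp91phox and p22phox protein. Cybc1 was at 62.6, 71.1 and 78.0 CPM in Ctr and 69.3, 139.8 and 126 CPM in αGlu, with αGlu 1 inside the Ctr range. Its log2 fold change was 0.66 ± 0.27 (adjusted p = 0.199).

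Among 7 negative regulators, 2 had an unadjusted p below 0.05 (28.6%, beside 24.7% of all genes), both with lower values. Arhgap25, a GTPase-activating protein that turns Rac off, was at 528, 479 and 447 CPM in Ctr and 308, 99.5 and 84.1 CPM in αGlu, with no overlap. It had the largest difference in the 9 lists, -1.57 ± 0.52 (adjusted p = 0.168), which without αGlu 1 was -2.40 ± 0.13 (adjusted p = 6.29e-05) and was called.

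The 7 tested Rac exchange factors, which load Rac with GTP, went in both directions, with a median of -0.54. At an unadjusted p below 0.05 there were 2 higher and 2 lower (57.1%, beside 24.7% of all genes). Tiam1 was at 31.7, 31.9 and 22.1 CPM in Ctr, compared with 17.95, 11.5 and 11.9 CPM in αGlu (log2 fold change -1.06 ± 0.23, adjusted p = 0.155). Vav1, of the blood cell lineages, was at 135, 139.6 and 146 CPM in Ctr, compared with 154, 283 and 267 CPM in αGlu (0.75 ± 0.23, adjusted p = 0.162). Both were without overlap, in opposite directions. Tiam1 was called without αGlu 1, at -1.29 ± 0.18 (adjusted p = 0.00216), together with Dock2 and Dock5, both lower. These were 3 of the 7 tested (42.9%), beside 18.6% of all genes called in that fit, 10.5% as lower.

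Kinases of oxidase activation, which phosphorylate p47phox and other subunits or act upstream, had 9 genes tested and a median of -0.30. At an unadjusted p below 0.05 there were 1 higher and 3 lower (44.4%, beside 24.7% of all genes). Akt1 was at 277, 263 and 254 CPM in Ctr and 232, 202 and 213 CPM in αGlu (log2 fold change -0.30 ± 0.10, adjusted p = 0.165). Prkcd, the protein kinase C δ gene, was at 814, 815 and 784 CPM in Ctr and 696, 498 and 545 CPM in αGlu (-0.47 ± 0.16, adjusted p = 0.168). In both genes all αGlu libraries were below all Ctr libraries. The 8 phosphoinositide kinase genes, whose lipid products bind p40phox and p47phox, had none at an unadjusted p below 0.05 and a median of -0.02. The smallest p values among them belonged to Pik3ca (0.23 ± 0.11, adjusted p = 0.235) and Pik3cb (-0.22 ± 0.12, adjusted p = 0.296).

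**Figure D4:**
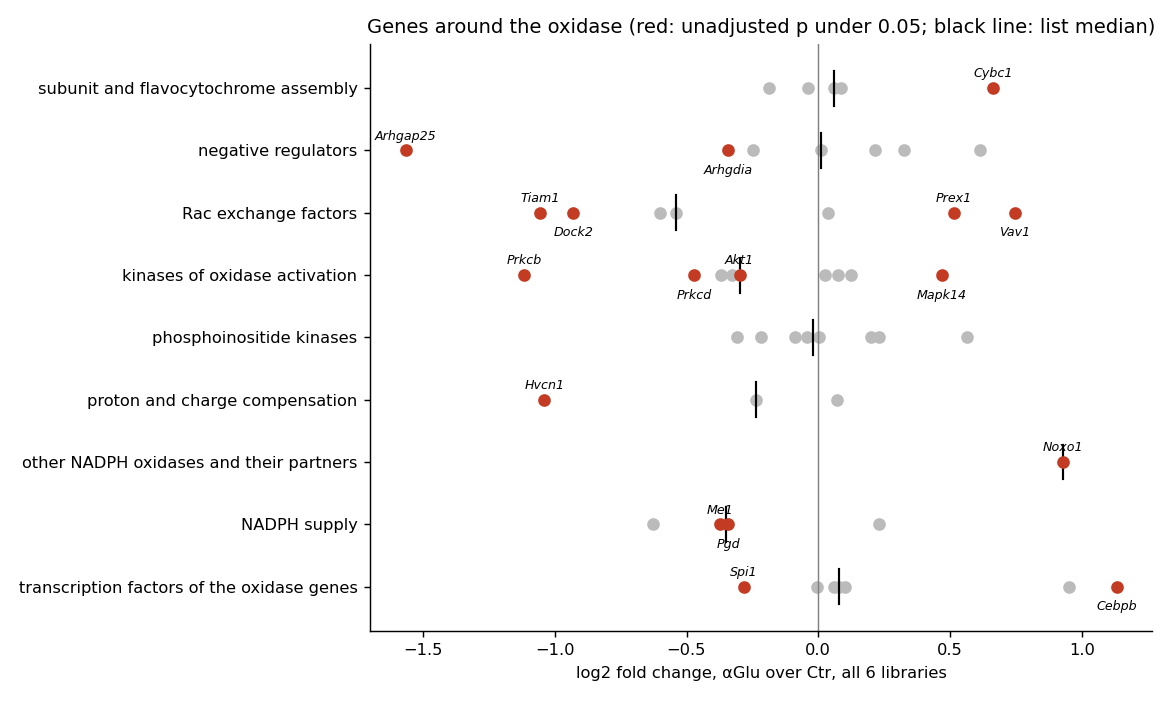
Log2 fold change (αGlu over Ctr, all 6 libraries) of the 52 tested genes in the 9 lists around the oxidase, with 1 point per gene, red and labelled at an unadjusted p below 0.05, and a black line at each list's median. The 17 red points lie on both sides of 0, with 6 higher and 11 lower, from Arhgap25 at -1.57 to Cebpb at 1.13, and no gene passed the call.

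Hvcn1, the voltage-gated proton channel that balances the charge moved by the oxidase, was at 628, 484 and 452 CPM in Ctr, compared with 361, 217 and 182 CPM in αGlu. The groups did not overlap, and the log2 fold change was -1.04 ± 0.29 (adjusted p = 0.158). Without αGlu 1 it was called at -1.39 ± 0.17 (adjusted p = 0.00151). The chloride-proton exchanger gene Clcn3 overlapped between groups (-0.24 ± 0.19, adjusted p = 0.448). Of 5 genes supplying NADPH, 2 had an unadjusted p below 0.05 (40.0%, beside 24.7% of all genes). They were Me1, malic enzyme, at -0.37 ± 0.12 (adjusted p = 0.163), and Pgd, of the pentose phosphate pathway, at -0.34 ± 0.12 (adjusted p = 0.174), and for both all αGlu libraries were lower.

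The other NADPH oxidases were almost without reads. Nox4, Duox1, Duox2, Duoxa1, Duoxa2 and Noxa1 had 0 reads in all libraries, and Nox1 and Nox3 had at most 6 and 2 in a library. A count of 0 allows up to 3 reads in a library, counting error only. Noxo1, the organizer of the NOX1 oxidase and a relative of p47phox, passed the filter with at most 42 reads, at 0.591, 0.669 and 0.557 CPM in Ctr and 0.803, 1.10 and 1.54 CPM in αGlu. Its log2 fold change was 0.93 ± 0.32 (adjusted p = 0.174), and 1.11 ± 0.32 without αGlu 1 (adjusted p = 0.0352).

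Transcription factors known to act on the oxidase genes had 7 of 8 genes tested and a median of 0.08. At an unadjusted p below 0.05 there were 1 higher and 1 lower (28.6%, beside 24.7% of all genes). Spi1, which encodes PU.1, was at 239.7, 258 and 237 CPM in Ctr and 225, 189 and 190.5 CPM in αGlu, with no overlap (-0.28 ± 0.11, adjusted p = 0.188). Cebpb was at 22.2, 27.3 and 21.6 CPM in Ctr and 22.1, 80.8 and 52.8 CPM in αGlu. In αGlu 1 it did not leave the Ctr range, and the log2 fold change was 1.13 ± 0.44 (adjusted p = 0.194), or 1.49 ± 0.19 without αGlu 1 (adjusted p = 0.00177). Irf1 and Irf8, which bind IRF-type repeats, had log2 fold changes of 0.06 ± 0.26 and 0.08 ± 0.10 (adjusted p = 0.894 and 0.625).

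Neutrophils carry the same oxidase, and their markers were therefore set beside the members. The 12 neutrophil genes summed to 129 to 211 CPM in Ctr and to 241, 570.3 and 636 CPM in αGlu 1, 2 and 3, and 4 of the 12 had a mean above 1 CPM. Most of the sum was Csf3r, the G-CSF receptor, with 103 to 158 CPM in Ctr and 183, 536 and 607 CPM in αGlu, the same order of libraries as for Ncf1. The second most abundant, Mmp8, did not follow it, with 21.7, 63.0 and 42.5 CPM in Ctr and 54.0, 31.6 and 26.7 CPM in αGlu. Mpo, Ngp and S100a9, of neutrophil granules and cytosol, were lower in αGlu 2 and 3 than in any Ctr library, at no more than 0.0944, 0 and 0.0630 CPM there. S100a8 went the other way, at 0.909, 0.752 and 0.510 CPM in Ctr and 0.574, 2.11 and 1.32 CPM in αGlu. Ly6g, the defining surface marker, was at 0 in all libraries, and Elane and Camp reached at most 0.167 and 0.0944 CPM. Dendritic cell markers summed to at most 1.30 CPM, those of lymphocytes to at most 0.346 CPM and those of fibroblasts to at most 7.18 CPM in any library. The 6 markers of eosinophils, mast cells and basophils summed to 9.95 to 14.8 CPM in Ctr and to 7.74, 1.13 and 0.807 CPM in αGlu. Siglecf was most of this sum in Ctr, at 8.72, 6.81 and 13.1 CPM, but not in αGlu, at 3.67, 0.252 and 0.147 CPM. The part of other cell types in the differences above was not tested. In such bulk RNA, fewer cells of a type and less RNA per cell cannot be told apart.

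Finally, the genes whose levels followed each member most closely were sought among 5130 well expressed genes, by Pearson's r of log2 CPM over the 6 libraries. These values are descriptions, since the libraries form 2 groups and αGlu 2 and 3 lie far from the others. Ncf1 was followed most closely by Acp2, a lysosomal acid phosphatase (r = 0.999), and Icam1, an adhesion molecule (r = 0.999), and 76 genes had an r above 0.99 with it. Cybb was followed by Vdac3, a channel of the outer mitochondrial membrane (r = 0.9996), and Bcas2, a splicing factor (r = 0.995). For Cyba they were the kinase Rps6ka2 (r = 0.996) and the transporter Slc15a3 (r = 0.995). Rac2 was closest to Bckdk (r = 0.9904) and Ran (r = 0.981), Rac1 to Hnrnpk (r = 0.986) and Rbfa (r = 0.979), and Ncf4 to Kat2a (r = 0.969) and Cox7a2 (r = 0.936). No gene exceeded 0.99 for Ncf4 or Rac1.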

How the data were processed

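RNA of 6 libraries, 3 per group, was sequenced from M2 Mφs with a stranded mRNA kit. The authors made the deposited table in the QIAGEN RNA-seq Analysis Portal, on the GRCm38 build, and an aligner and annotation are not given in the sources used here. The deposited counts give the reads of each gene, unscaled, and the deposited TPM and RPKM values are normalized per length by the authors. A deposited CPM column, a library-scaled signal of the authors, was not used. Groups came from the labels of the libraries, which the study calls independent experiments, and pairwise counts showed 6 separate libraries. For primary cells, the study states that replicates came from different animals, but not whether Ctr and αGlu libraries shared an animal. Its qPCR of the fragment after the same transfection was tested as paired, so these libraries may be paired too. P values measure the spread between these libraries.

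Counts were fitted with edgeR 4.0.16 (R 4.3.3, filterByExpr with a minimum count of 10, TMM factors of 0.951 to 1.07, quasi-likelihood, two-sided). P values were Benjamini-Hochberg adjusted over all tested genes. CPM used TMM-scaled library sizes. limma 3.58.1, DESeq2 1.42.0, other scalings, filters, a replicate block and fits without each library were alternatives, and scripts were tested on simulated data. With 3 against 3 libraries, an exact permutation test cannot go below p = 0.1. Each member had 3053 reads or more per library. The members, lists and tests were chosen with earlier results of these data known. The promoter motifs were chosen after values were seen. Named genes were the members, the 2 tested genes of smallest p in each list, and the 2 genes most like each member. Other genes are named as examples chosen after their values were seen, and 2 genes that the rule names are not reported here. Sequences came from the study's oligonucleotide list and RefSeq tables (3 of 6 members matched a promoter).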

Additional observations from a re-analysis of the deposited data

How the results depend on the processing

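No member lost or gained a call under other scaling factors, other low-count filters, limma-voom, the replicate block or removal of the fold limit. Over 15 alternatives the log2 fold change ranged from 0.88 to 1.41 in Ncf1, 0.34 to 0.64 in Cybb, -0.37 to -0.13 in Cyba, -0.20 to -0.02 in Ncf4 and -0.25 to -0.09 in Rac1, without a change of sign, and the adjusted p of Ncf1 from 0.000136 to 0.427. Rac2, at -0.08, was 0.0122 with library size alone and 0.0128 without αGlu 1, and the Rac2 to Rac1 log2 ratio was -0.0065 without αGlu 2 (range without single libraries -0.0065 to 0.20). Of all genes, 1117 were called by DESeq2, 899 by the likelihood-ratio test, 17 with the replicate block and 0 to 2290 without single libraries, where 2290 came only without αGlu 1. Of the members, 1 (Ncf1) was called by DESeq2, 1 (Ncf1) by the likelihood-ratio test, and 0 to 1 without single libraries. Leaving out single libraries gave 0 to 3 members at an unadjusted p below 0.05 (0 without Ctr 1 or αGlu 3, 3 without αGlu 1), and 1 to 3 with no overlap. Those 3 were Ncf1, Cybb and Cyba without αGlu 1, and 2 were found without Ctr 1 (Ncf4 added), Ctr 2 or αGlu 3 (Rac1 added). Of all genes, 65.9% had no overlap without αGlu 1, 37.6% without Ctr 1, 37.7% without Ctr 2 and 34.1% without αGlu 3. Called genes of the surrounding lists numbered 0 to 10, 10 only without αGlu 1. Same-numbered libraries correlated in their deviations at 0.076, 0.065 and 0.154, above all other pairings of Ctr with αGlu (-0.112 to 0.046). Whether equal numbers share a culture or animal is not stated in the sources used here. The numbers were therefore not taken as pairs in the main fit, although the study tested its qPCR of this transfection as paired. The replicate block called 0 members. With the block the SE was smaller for Ncf1 (0.29), Cybb (0.17) and Rac1 (0.10), and larger for Cyba, Ncf4 and Rac2. The edgeR quasi-likelihood adjusted p was then 0.178 for Ncf1 and 0.220 for Cybb. Library size alone moved the median log2 fold change of all genes from 0.02 to 0.10. The cause of these differences between settings was not tested.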
